A study of Mus musculus with 6 samples.

Results

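The 9 genes described here govern how a macrophage takes up and spends the amino acid arginine. They are the transporters Slc7a1 and Slc7a2, the arginases Arg1 and Arg2, the inducible nitric oxide synthase Nos2, the enzymes Ass1 and Asl that rebuild arginine from citrulline, and Odc1 and Srm of polyamine synthesis. They were chosen by name from the 22180 genes compared, and each was read on its brightest probe set with exactly 1 gene symbol in the platform annotation. All 9 were found, each on 1 such probe set.

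The labels describe the samples as macrophages sorted by flow cytometry on day 6 from BALB/c hearts transplanted into C57BL/6 mice. In 3 samples the recipients had been given mTORi-HDL, a lipoprotein nanoparticle that carries an inhibitor of the kinase mTOR, at 5 mg/kg on days 0, 2 and 5. In the other 3 the recipients were untreated and rejected their grafts. The donor strain, the recipient strain and the day of sorting were shared by both groups. The labels name no sort markers, no ages and no group that received the lipoprotein without the inhibitor, so inhibitor and carrier cannot be told apart. The labels also do not say that samples came from separate recipients, so p-values measure only the spread between these samples, which may be technical.

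Arginine is a branch point in macrophages. Nitric oxide synthase turns it into nitric oxide, which is toxic to microbes and tumour cells, and citrulline, which Ass1 and Asl can return to arginine. Arginase instead splits it into urea and ornithine, from which Odc1 and Srm make the polyamines that dividing cells need and other enzymes make proline for collagen. In mouse macrophages interferon-gamma and microbial products are known to induce Nos2, and IL-4 and IL-13 are known to induce Arg1.

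Each sample gave 41345 log2 values on 1 array, and precision is set by how many arrays there are. The array mTORi-HDL 1 stood apart. Its probe sets spread less (SD 1.68) than those of the remaining arrays (2.04 to 2.09). Pearson correlations with it were 0.708 to 0.741 over all probe sets, and among the remaining 5 they were 0.892 to 0.912. Bright genes read lower and dim genes read higher on it, with a slope of 0.641 on the mean of the others. Results are therefore given over 6 arrays and over the 5 arrays without mTORi-HDL 1.

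The comparison asked whether the arginine programme of the sorted samples differed with treatment, and no member was called. With limma's test and Benjamini-Hochberg adjustment over all genes, the 9 members gave 0 calls at a threshold of 0.05, against 0% of all genes over 6 arrays and 0% over 5. At an unadjusted p under 0.05 the count was also 0 of 9 in both comparisons, where 4.64% of all genes over 6 arrays (1.57% higher, 3.07% lower) and 6.97% over 5 (3.47% higher, 3.51% lower) had such a p. Treated and untreated arrays did not overlap for 1 of the 9 genes, Odc1, which was lower, against 10.9% of all genes in either direction and 5.53% in the lower one. Without mTORi-HDL 1 it was again Odc1 alone, against 22.3% of all genes and 12.5% in the lower direction, since groups of 2 and 3 separate more often. The members' counts lay near or below the background in each case.

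The size of the changes was small beside the spread. Of the 9 genes 5 had a higher mean in treated samples and 4 a lower one, with a median change of 0.03 on the log2 scale, against 0.08 over all genes, of which 58.2% were higher and 41.8% lower. Over the 5 arrays the counts were again 5 and 4, with a median of 0.19 against -0.03 over all genes (46.6% higher, 53.4% lower). The median SD of the members among treated arrays was 0.734, against 0.484 for all genes, and among untreated arrays 0.530 against 0.280.

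**Figure D1:**
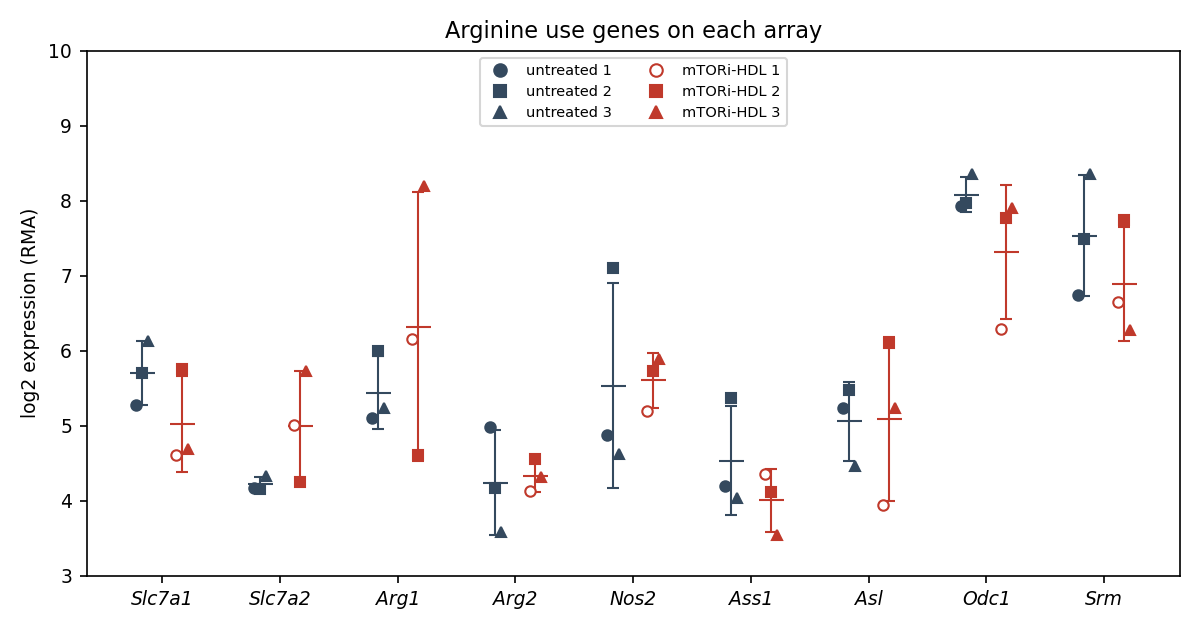
Log2 expression of the 9 genes (vertical axis) on each array, with untreated samples in dark grey and mTORi-HDL samples in red; horizontal bars are group means and error bars are SD (n = 3 each), and the open circle is mTORi-HDL 1. Arg1 spans 4.61 to 8.19 among treated arrays and Nos2 spans 4.62 to 7.11 among untreated arrays, while Odc1 is lower on every treated array than on any untreated one.

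The cationic amino acid transporters differed in direction. Slc7a2, a carrier that activated macrophages use to import arginine, read 5.01, 4.26 and 5.72 on the treated arrays 1, 2 and 3 and 4.18, 4.16 and 4.33 on the untreated arrays. The untreated values lay within 0.18 of each other, and mTORi-HDL 2 fell inside the untreated range while the other treated arrays lay above it. The mean was 0.77 higher in treated samples (95% interval -0.14 to 1.69; limma, adjusted p = 0.89). Over 5 arrays it was also 0.77 higher (adjusted p = 0.811). Leaving out mTORi-HDL 2 the difference was 1.15 and without mTORi-HDL 3 it was 0.41, and neither passed.

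Slc7a1, the widely expressed arginine carrier of growing cells, read 4.61, 5.75 and 4.69 on the treated arrays and 5.28, 5.70 and 6.13 on the untreated ones. Treated arrays 1 and 3 were below every untreated array, and mTORi-HDL 2 lay among them. The mean was lower by 0.68 (95% interval -1.62 to 0.25; limma, adjusted p = 0.89), and by 0.48 over 5 arrays (adjusted p = 0.895). Without mTORi-HDL 2 the change was -1.05.

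Arg1, the cytosolic arginase, had the widest spread of the 9 genes among treated samples. It read 6.16, 4.61 and 8.19 on the treated arrays 1, 2 and 3, and 5.10, 6.00 and 5.23 on the untreated arrays. The highest and the lowest of all 6 values were both treated, on mTORi-HDL 3 and mTORi-HDL 2, a range of 3.58 on the log2 scale or 12-fold. Only 2.55% of all genes had a larger range over the treated arrays, and 0.149% had a larger one between treated arrays 2 and 3. Among untreated arrays Arg1 ranged over 0.90, and 20.9% of genes ranged further.

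The treated mean of Arg1 was 0.88 higher, a 1.84-fold difference with a 95% interval of 0.486 to 6.96-fold (limma, adjusted p = 0.89). Without mTORi-HDL 1 it was 0.96 higher (adjusted p = 0.918). The direction rested on mTORi-HDL 3, since the change without that array was -0.06. Without mTORi-HDL 2 the change was 1.73, with an unadjusted p of 0.0306 and an adjusted p of 0.69 in limma's test. The interval spans a halving as well as a several-fold increase, so these arrays do not settle the direction.

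Arg2, the mitochondrial arginase, read 4.12, 4.55 and 4.32 on the treated arrays and 4.98, 4.17 and 3.58 on the untreated ones. All treated values lay inside the untreated range. The difference of 0.09 (95% interval -0.82 to 1.0; limma, adjusted p = 0.968) turned to -0.02 after median centring and after quantile normalization of the arrays.

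Nos2, which makes nitric oxide in activated macrophages, varied more among untreated than among treated samples. It read 5.19, 5.73 and 5.88 on the treated arrays and 4.88, 7.11 and 4.62 on the untreated arrays. The array untreated 2 was above all others and the other untreated arrays were below all treated ones. The untreated range was 2.49, or 5.61-fold, and 0.965% of all genes had a larger one there. The group means were 5.60 and 5.53, a difference of 0.07 (95% interval -1.44 to 1.57; limma, adjusted p = 0.986), and 0.27 without mTORi-HDL 1 (adjusted p = 0.978). Without untreated 2 the difference was 0.85, with an unadjusted p of 0.0518 and an adjusted p of 1, and without untreated 1 or untreated 3 it was -0.26 or -0.39.

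Ass1, argininosuccinate synthase, joins citrulline to aspartate in the step that limits the return of citrulline to arginine. It read 4.36, 4.11 and 3.54 on the treated arrays and 4.19, 5.37 and 4.04 on the untreated arrays. Its highest value was on untreated 2, as for Nos2. The mean was lower by 0.53 in treated samples (95% interval -1.53 to 0.47; limma, adjusted p = 0.89), but by 0.11 without untreated 2. Asl, argininosuccinate lyase, completes that step. It read 3.94, 6.10 and 5.23 on the treated and 5.24, 5.47 and 4.46 on the untreated arrays, with its lowest value on mTORi-HDL 1. The difference of 0.03 (limma, adjusted p = 0.992) became 0.61 without that array (95% interval -0.34 to 1.55; adjusted p = 0.845).

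Gch1, the rate-limiting enzyme for tetrahydrobiopterin, the cofactor that nitric oxide synthase requires, was also highest on untreated 2. This gene was chosen after its values were seen. It read 4.58, 5.74 and 5.55 on the treated and 5.07, 6.87 and 5.10 on the untreated arrays, and its change was -0.39 (limma, adjusted p = 0.903). Nos2, Ass1 and Gch1 thus had their maximum on the same untreated array. The summed level of 14 neutrophil markers, to which S100a8 and S100a9 gave the most there, was 10.43 on that array, against 8.46 and 8.76 on the other untreated arrays and 8.47 to 9.62 on the treated ones, and S100a9 read 8.66 there and 4.81 to 6.04 elsewhere. The mean log2 level of the same markers was highest on mTORi-HDL 1, at 5.08 against 4.74 on untreated 2. Most of these markers are dim, and dim genes read higher on mTORi-HDL 1. The other markers were mixed. Mmp8 was highest on untreated 2, at 3.63 against 2.42 to 3.36 elsewhere. Retnlg read 5.41 there, against 2.14 and 2.38 on the other untreated arrays and 3.24 to 6.87 on the treated ones. Ly6g read 3.28 on untreated 2, within its range of 2.97 to 3.71 on the other arrays. Mmp8 and Ly6g lay below the median of all genes on each array (4.03 to 4.38), so they say little. The part of neutrophils in the Nos2 value was not tested.

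**Figure D2:**
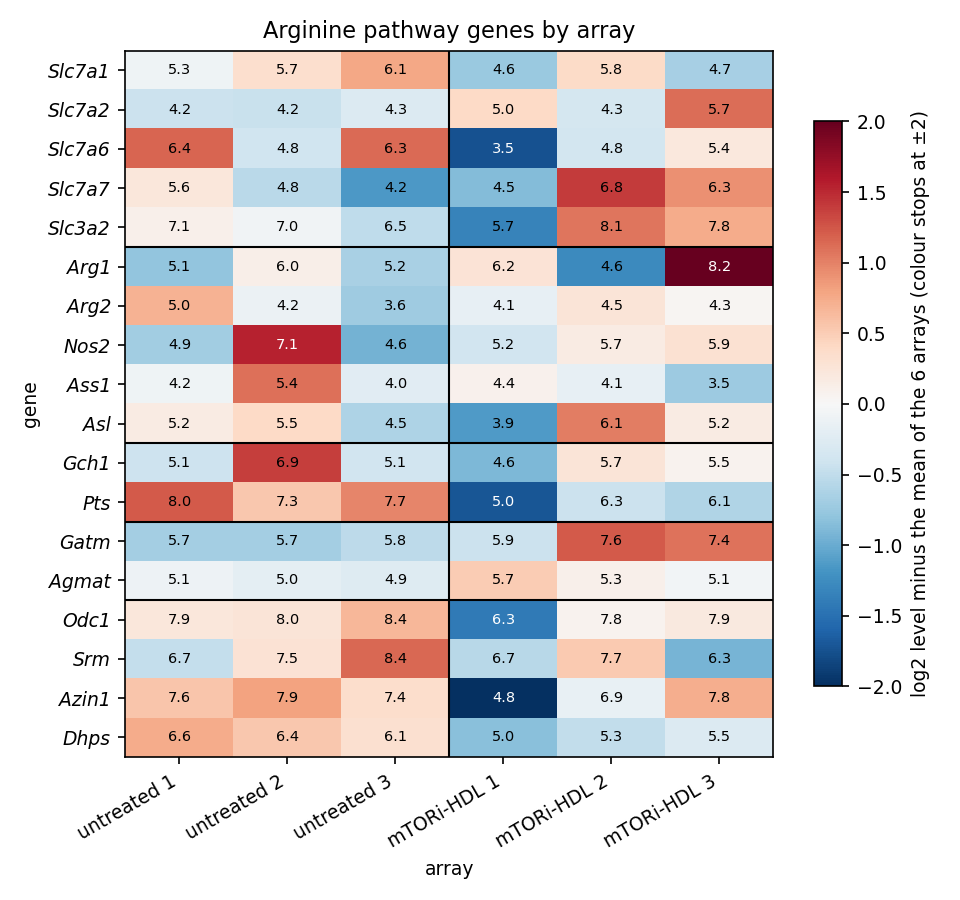
Heatmap of 18 arginine pathway genes (rows) on the 6 arrays (columns, untreated left, mTORi-HDL right); numbers are log2 levels and colour is the level minus the gene's mean over the 6 arrays, with colour stopping at ±2. Nos2, Ass1 and Gch1 are highest on untreated 2, Arg1 and Slc7a2 are highest on mTORi-HDL 3, and Gatm is higher on every treated array.

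Arginase and nitric oxide synthase compete for arginine, so their changes were set against each other on each array. The log2 value of Arg1 minus that of Nos2 was 0.96, -1.12 and 2.31 on the treated arrays and 0.22, -1.11 and 0.61 on the untreated arrays. The lowest values of the groups were nearly equal, and the treated arrays 1 and 3 lay above every untreated one. The change of Arg1 exceeded that of Nos2 by 0.81 (two-sided exact permutation test over samples, p = 0.5, where the smallest p this design allows is 0.1). Without mTORi-HDL 1 the difference of changes was 0.69 (exact permutation p = 0.8). No shift between the enzymes was detectable with these arrays.

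Odc1, ornithine decarboxylase, makes putrescine and is the rate-limiting enzyme of polyamine synthesis. It read 6.29, 7.77 and 7.90 on the treated arrays and 7.93, 7.96 and 8.36 on the untreated ones. Every treated array was below every untreated one, but mTORi-HDL 3 missed the lowest untreated array by a small margin and mTORi-HDL 1 lay far below the rest. The mean was lower by 0.77 (95% interval -1.83 to 0.30; limma, adjusted p = 0.89). Without mTORi-HDL 1 it was lower by 0.25 (95% interval -0.81 to 0.31; adjusted p = 0.911), so most of the difference came from that array, on which bright genes read low.

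Srm, spermidine synthase, adds an aminopropyl group to putrescine. It read 6.65, 7.74 and 6.28 on the treated arrays and 6.74, 7.50 and 8.36 on the untreated arrays. The arrays mTORi-HDL 1 and 3 lay below all untreated arrays, and mTORi-HDL 2 lay between untreated 2 and 3. The mean was lower by 0.64 (95% interval -1.87 to 0.59; limma, adjusted p = 0.89) and by 0.52 without mTORi-HDL 1 (adjusted p = 0.930). Without untreated 3 the change was -0.23, without mTORi-HDL 3 it was -0.34, and without mTORi-HDL 2 it was -1.07. Slc7a1 and Srm were both highest on untreated 3, as was Odc1.

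**Figure D3:**
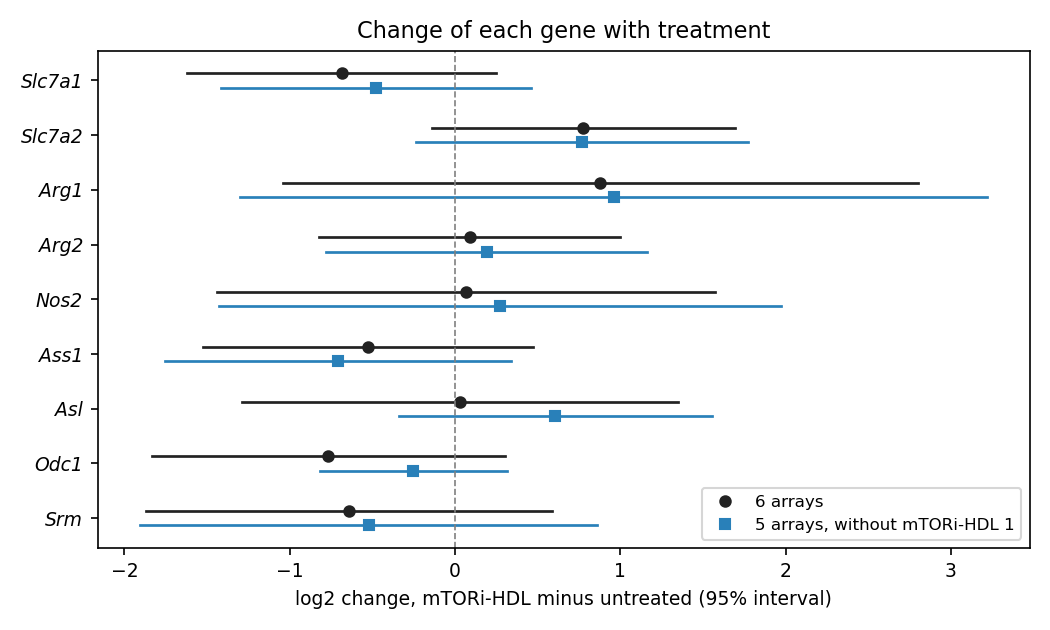
Log2 change (mTORi-HDL minus untreated, horizontal axis) of each gene with its 95% interval, over 6 arrays (black circles) and over the 5 arrays without mTORi-HDL 1 (blue squares). Each interval includes 0; that of Arg1 is the widest over 6 arrays, from -1.04 to 2.80, and the estimate of Odc1 moves from -0.77 to -0.25 when mTORi-HDL 1 is left out.

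Odc1 is known as a target of the transcription factor MYC, which binds the letters CACGTG, and MYC is known to switch on Ass1 in tumour cells starved of arginine. Their upstream sequences are shown because Odc1 was the member whose groups did not overlap and Ass1 is known to share this regulator with it. The 250 bases before the annotated start are printed from RefSeq on build GRCm38.p6, and windows of 3 of the 9 genes were used here. Odc1 lies at chr12:17544623-17544872 on the plus strand and Ass1 at chr2:31470020-31470269 on the plus strand. Capitals mark CACGTG and GGGCGG or its reverse complement CCGCCC, the GC box of the factor Sp1.
Odc1: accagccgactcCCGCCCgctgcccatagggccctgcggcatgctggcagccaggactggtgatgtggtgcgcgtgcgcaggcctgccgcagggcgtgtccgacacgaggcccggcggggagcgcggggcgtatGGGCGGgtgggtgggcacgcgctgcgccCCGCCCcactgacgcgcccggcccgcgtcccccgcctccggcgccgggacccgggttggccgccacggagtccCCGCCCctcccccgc
Ass1: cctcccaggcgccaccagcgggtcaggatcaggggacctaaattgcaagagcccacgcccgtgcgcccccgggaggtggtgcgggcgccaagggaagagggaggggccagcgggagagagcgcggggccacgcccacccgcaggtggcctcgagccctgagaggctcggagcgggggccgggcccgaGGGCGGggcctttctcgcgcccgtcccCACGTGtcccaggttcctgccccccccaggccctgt
The Odc1 window held 4 GC boxes, the nearest 15 bases before the start, and no CACGTG, and 80% of its bases were G or C. The Ass1 window held 1 CACGTG at 36 bases and 1 GC box at 63 bases before the start, with 75.6% G or C. Slc7a1, with 2 annotated starts, had 1 GC box in the 2 windows together and no CACGTG. On both strands 6.02% of 32851 RefSeq windows of this length held CACGTG and 32.7% held a GC box, and the median window was 52.4% G or C. Other motifs were searched. TGATGNAA, the ATF4 element, was found in none of the 4 windows (3.45% of all), while TATAAA (12.4% of all) and TTCNNNGAA of STAT factors (7.02% of all) each occurred in 1 Slc7a1 window. These are matches of letters and not bound sites. Bases after the start and further upstream were not searched, so a motif absent here may lie elsewhere in the gene.

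Myc itself read 5.36, 8.63 and 8.27 on the treated and 7.96, 8.20 and 7.44 on the untreated arrays. Its change was -0.45 over 6 arrays and 0.58 over 5 (limma, adjusted p = 0.918 over 6), so the sign turned with mTORi-HDL 1. Of 11 genes of MYC and its partners 4 were higher and 7 lower, with 0 passing adjustment and a median of -0.45, or of -0.06 without mTORi-HDL 1. Mlx, a partner of the MYC-like factors that sense glucose, had the smallest p of that list, with 4.16, 5.56 and 4.83 on the treated and 6.12, 6.60 and 6.26 on the untreated arrays. Its change was -1.48 (limma, adjusted p = 0.842). Mxi1, Mxd1 and Mnt, which oppose MYC, had changes of -2.23, -0.97 and 0.52 (limma, adjusted p = 0.89 each), and of -0.82, -0.13 and 0.32 without mTORi-HDL 1.

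Beyond the 9 genes, 115 others of 11 lists on arginine, polyamines, their regulators and the macrophage states tied to Arg1 or Nos2 were compared, and 0 passed adjustment over all genes on 6 or on 5 arrays. At an unadjusted p under 0.05 there were 5 higher and 3 lower, or 6.96% against the 4.64% of all genes. Without mTORi-HDL 1 there were 16 higher and 3 lower, or 16.5% against 6.97%. Groups did not overlap for 13.9% of them against 10.9%, and for 32.2% against 22.3% over 5 arrays. Macrophage markers, summed, were also higher on treated arrays 2 and 3 than on any untreated array, and their part in these shares was not tested.

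Of the 10 arginine and ornithine transporters 8 were higher and 2 lower (6 and 4 without mTORi-HDL 1), with a median change of 0.44 over 6 arrays and 0.20 over 5. Slc7a7, which with Slc3a2 exports arginine from cells in exchange for neutral amino acids, read 4.50, 6.76 and 6.28 on the treated and 5.59, 4.82 and 4.21 on the untreated arrays. Its change was 0.97 over 6 arrays (limma, adjusted p = 0.89) and 1.65 over the 5, on which the groups did not overlap (adjusted p = 0.417). Slc3a2, the shared heavy chain of these exchangers, named after its values were seen, read 5.69, 8.10 and 7.76 against 7.13, 6.95 and 6.52, with changes of 0.32 and 1.06. For both genes treated arrays 2 and 3 were above every untreated array. Slc7a6, the related exchanger, had a change of -1.27, and Slc7a4 and Slc25a29 had changes of 0.50 and 0.56 (limma, adjusted p = 0.89 each). Over 5 arrays these were -0.72, 0.35 and 0.25.

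None of the other arginase, citrulline and nitric oxide genes passed adjustment. In that list of 14, members included, 12 were higher and 2 lower, but after median centring 7 were higher and 7 lower. Nosip, a protein that binds nitric oxide synthase, had a change of -0.77. Nostrin, which moves the endothelial synthase inside the cell, had one of 0.88, and the endothelial synthase Nos3 had one of 0.37. The liver enzyme Otc, which makes citrulline from ornithine, had a change of 0.39 (limma, adjusted p = 0.89 for each of the 4). Without mTORi-HDL 1 the changes of Nos3 and Otc were 0.16 and 0.11.

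The next list held genes around guanidinoacetate, creatine and agmatine, and not all of them use arginine itself. All 6 were higher in treated samples, also after median centring, after quantile normalization and without mTORi-HDL 1. Gatm, which transfers the amidino group of arginine to glycine as the first step of creatine synthesis, read 5.93, 7.59 and 7.44 on the treated and 5.68, 5.68 and 5.84 on the untreated arrays. The untreated values were nearly equal, mTORi-HDL 1 lay just above them and the other treated arrays lay far above. Its change was 1.25 (limma, unadjusted p = 0.0269, adjusted p = 0.89), and 1.78 ± 0.21 (SE) without mTORi-HDL 1 (unadjusted p = 8e-05, adjusted p = 0.123). Agmat, which cleaves agmatine, had a change of 0.37 (0.21 without mTORi-HDL 1), with groups that did not overlap. Gamt, the next enzyme of creatine synthesis, had a change of 0.37 (0.24 without it), and Ckb, a creatine kinase, had one of 0.48 and, over 5 arrays, of 0.80. None of the 6 passed adjustment.

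Of 7 tetrahydrobiopterin genes 3 were higher and 4 lower. Pts, which carries out the middle step in the synthesis of this cofactor, read 5.03, 6.32 and 6.14 on the treated and 7.97, 7.28 and 7.72 on the untreated arrays. All treated arrays were below all untreated arrays. Its change was -1.83 ± 0.41 (SE; limma, unadjusted p = 0.00239, adjusted p = 0.696), and -1.43 without mTORi-HDL 1 (adjusted p = 0.254). Gch1, which precedes Pts, had a change of -0.39 over 6 arrays and -0.04 over 5. Pcbd2, Pcbd1 and Gchfr, a cofactor-recycling pair and the regulator of Gch1, had changes of -1.54, 0.70 and 0.24 (limma, adjusted p = 0.89 each), and of -0.38, 0.27 and 0.11 without mTORi-HDL 1.

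On the route from ornithine to proline 4 of 5 genes were lower, and 3 of 5 after quantile normalization. Pycrl, the annotation's name for pyrroline-5-carboxylate reductase 3, had a change of -0.62, and Aldh18a1, which makes the same intermediate from glutamate, had one of -0.50. The groups did not overlap for either gene (limma, adjusted p = 0.89 each). Aldh4a1 and Prodh, which break proline down, had changes of -0.04 and 0.05, and of -0.14 and -0.26 without mTORi-HDL 1. Oat, which takes ornithine into this route, had one of -0.06, which turned to 0.52 without that array.

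Of 8 genes of polyamine synthesis 3 were higher and 5 lower, and Odc1 alone had groups apart. After median centring 1 was higher and 7 lower, and after quantile normalization 4 were higher and 4 lower. Enoph1 and Apip of the methionine salvage route had changes of 0.73 and -0.46, Mri1 of the same route had one of -0.49, and Mat2b, a subunit of methionine adenosyltransferase, had one of -0.14. Without mTORi-HDL 1 the change of Apip was -0.28 and that of Mat2b turned to 0.05. Of 11 genes of polyamine control, breakdown and transport 8 were higher and 3 lower. Azin1, the antizyme inhibitor that protects Odc1 from degradation, read 4.78, 6.93 and 7.80 on the treated and 7.64, 7.89 and 7.43 on the untreated arrays, with changes of -1.15 and, without mTORi-HDL 1, of -0.29. Atp13a3, a polyamine importer, had changes of -0.83 and 0.21, Slc22a16 had 0.41 and 0.07, and Sat2 had 0.26 and 0.09, in the same order. Of these only the change of Atp13a3 turned its sign.

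Spermidine also supplies the hypusine residue of the translation factor eIF5A. Dhps, which starts that modification, read 4.98, 5.32 and 5.55 on the treated and 6.56, 6.36 and 6.14 on the untreated arrays. All treated arrays were below all untreated ones. The change was -1.07 ± 0.28 (SE; limma, unadjusted p = 0.00572, adjusted p = 0.839) and -0.92 without mTORi-HDL 1 (adjusted p = 0.417). Dohh, the enzyme that completes the modification, had a change of 0.39, and the substrates Eif5a and Eif5a2 had -0.22 and -0.38. Without mTORi-HDL 1 the change of Eif5a2 turned to 0.03.

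Genes known to accompany Arg1 in alternatively activated macrophages were not called either. Of 24 compared, 16 were higher and 8 lower, with a median change of 0.28 (0.22 over 5 arrays), and 13 were higher after median centring. At an unadjusted p under 0.05 there were 2 higher over 6 arrays and 4 over 5, beside shares of 1.57% and 3.47% of all genes. Retnla, a secreted protein induced by IL-4, read 10.55, 7.55 and 6.12 on the treated and 4.64, 6.56 and 5.22 on the untreated arrays, so the array highest in Retnla was not the array highest in Arg1. Mrc1, the mannose receptor, had 4.85, 5.66 and 5.49 against 4.58, 3.25 and 4.60, with groups apart and a change of 1.19. Fn1, fibronectin, read 4.53, 6.30 and 9.54 on the treated and 4.18, 4.10 and 4.51 on the untreated arrays, and its maximum was on mTORi-HDL 3, as for Arg1. Ccl17, a chemokine of this state, had a change of 1.48. Without mTORi-HDL 1 the change of Retnla fell from 2.60 to 1.36. In limma's test the adjusted p was 0.89 for each of these 4. Fn1 is also on the list of inflammatory monocyte markers. Among the 8 lower genes Stat6 had groups apart, with a change of -0.37 that was 0 after quantile normalization. Pdcd1lg2 and Tgm2, also lower, had changes of -0.99 and -0.94, and of -0.305 and 0.16 without mTORi-HDL 1.

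Of 24 genes that drive or accompany Nos2, 13 were higher and 11 lower, with a median of 0.14, and over 5 arrays 17 were higher and 7 lower, with a median of 0.63. At an unadjusted p under 0.05 there were 2 higher over 6 arrays and 7 higher over 5, beside 1.57% and 3.47% of all genes. The interferon-induced chemokines Cxcl9 and Cxcl10 were those 2, and their groups did not overlap. Cxcl9 read 11.85, 12.48 and 12.52 against 11.59, 11.72 and 11.38, and Cxcl10 read 10.41, 9.74 and 9.60 against 8.85, 9.28 and 8.56. Ifng, the interferon that T cells and NK cells make and that induces Nos2, read 6.20, 9.25 and 8.83 on the treated and 9.29, 9.98 and 9.53 on the untreated arrays, in the opposite order, with changes of -1.50 and, without mTORi-HDL 1, of -0.55. Jak1, a kinase of its receptor, was also lower on every treated array, with a change of -1.69 over 6 arrays and -0.46 over 5. None of the 4 passed (limma, adjusted p = 0.89 each).

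The genes with profiles most like those of Arg1 and Nos2 were sought among 3959 bright and variable genes by Pearson correlation over the 6 arrays, which share 1 compressed array. For Arg1 these were Dhrs3, a retinal reductase, at r = 0.960, Appbp2os at 0.928, Slpi, a secreted inhibitor of neutrophil elastase, at 0.902, Dhx35 at 0.888 and Nfxl1 at 0.882. Slpi read 6.53, 4.53 and 7.40 on the treated and 5.30, 6.19 and 4.32 on the untreated arrays. For Nos2 they were Abcd3, a peroxisomal transporter, at 0.963, Extl3 at 0.957, Cd160, a receptor of NK and T cells, at 0.941, and Sik2 and Rab30 at 0.931 each. Over the 5 arrays without mTORi-HDL 1 the 10 correlations lay between 0.880 and 0.969, and between 13 and 82 other candidates correlated more strongly. The ranking thus changed when that array was left out, and leaving out other arrays was not tried. With so few arrays, correlations of this size arise for many genes, and the names are a description only.

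Markers of other cell types were read in the sorted samples, and some moved with the groups. Macrophage markers differed in brightness over the 6 arrays. Lyz2 read 10.80 to 11.62 and Cd68 8.78 to 10.87, while Mertk read 3.83 to 5.93 and Cd163 2.85 to 3.85. Some T cell markers were bright too, with Cd3d at 8.37 to 11.45 and Cd3g at 8.63 to 10.96, while Cd4 read 3.08 to 8.22. The purity of the sort was not tested, so a member's value cannot be assigned to macrophages alone. Of 19 macrophage markers 17 were higher in treated samples, and their summed level on the log2 scale was 12.87 to 13.83 on treated and 12.75 to 12.98 on untreated arrays. All 14 T cell markers were lower, with a summed level of 11.28 to 12.69 on treated and 13.47 to 13.73 on untreated arrays. All 24 markers of dividing cells were lower as well, at 10.39 to 11.74 against 12.39 to 12.93. Both directions held without mTORi-HDL 1, after median centring and after quantile normalization. Of 14 neutrophil markers 11 were higher (9 after median centring, 7 without mTORi-HDL 1), with overlapping summed levels of 8.47 to 9.62 and 8.46 to 10.43. Of 12 endothelial markers, which include Nos3, 11 were higher (8 after median centring, 7 without mTORi-HDL 1), at 8.10 to 8.55 against 8.04 to 8.40. Of 11 markers of NK or cytotoxic lymphocytes 10 were lower, at 12.88 to 13.44 against 13.48 to 13.85. Within that list Gzmk and Klrg1 had changes of -2.43 and -2.10, while Ncr1, Klrb1c and Klrk1 had -0.06, -0.37 and 0.19. Of 9 B or plasma cell markers 8 were lower, at 10.50 to 11.20 against 11.39 to 11.47. Of 13 mast cell, basophil and eosinophil markers 12 were higher, at 7.83 to 8.38 against 7.18 to 7.46. Of 12 cardiomyocyte markers 11 were higher (8 without mTORi-HDL 1), at 8.78 to 9.21 against 7.89 to 8.58. Of 11 dendritic cell markers 7 were higher, at 10.33 to 11.62 against 10.48 to 10.72. Of 11 inflammatory monocyte markers 8 were higher, at 11.63 to 12.28 against 11.47 to 12.03. Their sum was highest on mTORi-HDL 3, as was Arg1, and their part in the Arg1 value was not tested. Of 12 fibroblast and mural cell markers 9 were higher and 3 lower. Their summed level was lower, at 9.44 to 11.13 against 11.17 to 11.33, but Thy1 made up most of the untreated sum. Thy1, among the 3 lower, read 6.73 to 10.53 on treated and 10.97 to 11.18 on untreated arrays. The T cell marker Cd3e had a similar profile, at 6.46 to 9.67 and 10.37 to 10.85. Which cells gave the Thy1 signal was not tested. Dcn and Col1a2, among the 9 higher, had changes of 2.22 and 2.19.

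Odc1, Srm and Slc7a1, which proliferating cells use, had lower means in the group with lower T cell and dividing cell markers, and Arg1, Slc7a2 and Gatm had higher means in the group with higher macrophage markers. The part of cell composition in these values was not tested. In sorted bulk samples fewer cells of a type and less RNA per cell cannot be told apart.

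**Figure D4:**
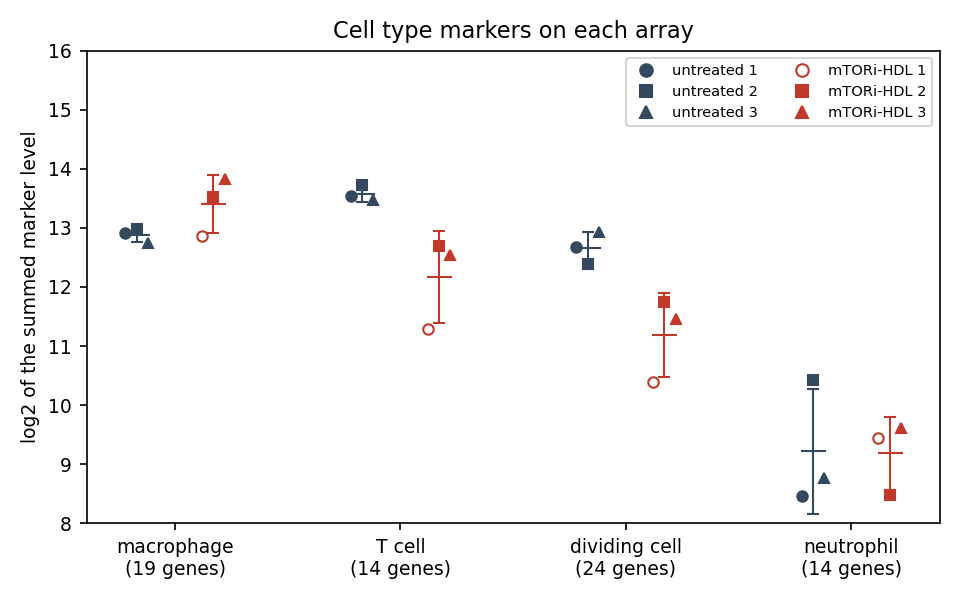
Log2 of the summed linear level of marker genes (vertical axis) for 4 cell types on each array, untreated in dark grey and mTORi-HDL in red, with group means and SD (n = 3 each). T cell and dividing cell markers are lower on every treated array, macrophage markers are highest on mTORi-HDL 2 and 3, and the summed neutrophil level is highest on untreated 2 at 10.43.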

How the data were processed

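The deposited table holds log2 expression values that the authors made by RMA in Affymetrix Expression Console, as the submitters' processing notes name them, without versions. RMA corrects background, quantile-normalizes and summarises probes on the log2 scale. Of 41345 probe sets 23521 had 1 gene symbol. The brightest stood for each gene, leaving 22180.

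The groups were compared by lmFit and eBayes of limma 3.58.1 (R 4.3.3) in a model with group alone, two-sided, with Benjamini-Hochberg adjustment over all genes. The fit was tested on simulated data that had no compressed array and held changes larger than those of the members. That test does not show how well changes of the members' size would be found here. A change is the treated mean minus the untreated mean, in log2 units.

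The 9 members and the lists were chosen with earlier results of these data known. Of 136 pathway genes listed 124 were compared and 12 were not analysed here. For marker genes these numbers were 172, 162 and 10. Named genes were the 9 members, up to 4 genes per pathway list with the smallest p, those with groups apart and a change of at least 1, and 5 per pattern. A pattern gene had a mean above the median and an SD above the 75th percentile of all genes. A few more describe a count or an array and were chosen after their values were seen.

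Alternatives were each array left out, median centring, quantile normalization, filters on brightness, a robust eBayes with trend, weights per array, blocking on the replicate number, the mean of probe sets and a threshold of 0.1. Quantile normalization of the 5 arrays without mTORi-HDL 1 was added after seeing the data.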

Additional observations from a re-analysis of the deposited data

How the results depend on the processing

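The count of members past the threshold was 0 under each alternative tried. The count of all genes was 0 as well, except with array weights, where it was 1 (H2bc12, limma, adjusted p = 0.02). Slc7a2 stayed higher and Ass1, Odc1, Srm and Slc7a1 stayed lower whichever array was left out, after median centring, after quantile normalization and with array weights, and Arg1 stayed higher in these except without mTORi-HDL 3. Quantile normalization of the 5 arrays without mTORi-HDL 1 kept the directions of these genes, with 1.01 for Arg1 and -0.26 for Odc1. The remaining alternatives cannot move a member's change. With each array left out in turn the changes ranged from -0.06 to 1.73 for Arg1, -0.24 to 0.46 for Arg2, -0.39 to 0.85 for Nos2, -0.78 to -0.11 for Ass1, -0.47 to 0.61 for Asl, -1.06 to -0.25 for Odc1, -1.07 to -0.23 for Srm, 0.41 to 1.15 for Slc7a2 and -1.05 to -0.47 for Slc7a1. Median centring moved the median change of all genes from 0.08 to -0.03 and the share of higher genes from 58.2% to 47.3%, and turned Arg2 to -0.02, Nos2 to -0.04 and Asl to -0.07. Quantile normalization turned Arg2 to -0.02 and Asl to -0.09. Beyond these constructions the cause of the reversals was not tested.

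The deviations of samples with the same number correlated at 0.136, 0.135 and -0.024, and those with different numbers at -0.163 to 0.126. So few arrays cannot decide whether the numbers mark pairs, and they were not taken as pairs. With the replicate block, which leaves the changes as they are by construction (-0.77 for Odc1), 0 members and 0 genes were called. With so few arrays, 1 of them compressed, intervals of several-fold remain for Arg1 and Nos2.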
